A study of Mus musculus with 22 samples.

Results

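Acute phase plasma proteins are secreted proteins whose blood level moves with inflammation, and most are made chiefly in liver. The set described here holds 10 genes of this kind other than serum amyloid A, namely Lcn2, Hp, Orm1, Orm2, Cp, Itih4, Hpx, Fgg, Fgb and Lrg1, chosen by name from 20018 genes named on the array. They were found by 11 probes whose RefSeq accession belongs to these genes, 2 for Itih4 and 1 for every other gene, and all 10 genes were expressed above the negative controls. Lung RNA came from female C57BL/6 mice, 8 weeks old at the start, that received 1 intratracheal instillation of Mitsui7, a long and rigid multiwalled carbon nanotube, under anaesthesia. There were 6 mice at 18 µg, 5 at 54 µg and 6 at 162 µg, and 5 control mice that received the vehicle, saline with diluted bronchoalveolar lavage fluid. The right lung was taken 24 hours after instillation from every mouse, and the labels name no genetic alteration. Each sample is the right lung of 1 mouse, a mixture of all its cells, so more RNA per cell and more cells of a type cannot be told apart.

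The acute phase response is driven by interleukin 6, interleukin 1 and tumour necrosis factor, which act through STAT3, C/EBP and NF-kB on the promoters of these genes. Hepatocytes are the textbook source, and airway and alveolar epithelium, macrophages and neutrophils also make some of the proteins. Their jobs differ: lipocalin 2 (Lcn2) binds bacterial siderophores, haptoglobin (Hp) binds free haemoglobin, hemopexin (Hpx) binds heme and ceruloplasmin (Cp) carries copper and oxidizes iron. The orosomucoids (Orm1, Orm2) are small lipocalins that bind drugs and steroids, fibrinogen (Fga, Fgb and Fgg chains) forms the clot, Itih4 is an inter-alpha-trypsin inhibitor heavy chain and Lrg1 is a leucine-rich glycoprotein that modulates TGF-beta signalling in vessels.

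Values are log2 ratios of lung RNA (Cy5) to a universal mouse reference RNA pooled from cell lines (Cy3) on dual-colour Agilent arrays, so a value is comparable between mice and not between genes. A gene is called when limma, fitted with dose and slide over all 22 arrays, gave an adjusted p of at most 0.05 over 55681 probes and a change of at least 1.5-fold. Control arrays had 70.4 to 77.5% of probes above the negative control threshold, against 56.8 to 77.9% in the 18 µg group, 57 to 78.9% in the 54 µg group and 50.3 to 83.5% in the 162 µg group. Lung identity was checked on Sftpb, Scgb1a1, Cdh5 and Foxj1, well above background on 22 of 22 arrays, Sftpc on 21 and Ager on 19. An array whose spot was left out as an outlier would also be missing from these counts. The arrays lay on 7 slides, of which 5 held a control.

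At 162 µg, 5 of the 10 genes were higher than in controls, Fgg, Hpx, Orm2, Orm1 and Lcn2, with changes from 3.13-fold (Lcn2) to 8.70-fold (Fgg), and no gene was lower. Over all 16429 expressed genes, 3.34% were called higher in that comparison. At 54 µg Hpx and Fgg were called, where 0.25% of expressed genes were called higher, and at 18 µg Lcn2 alone was called, where the share was 0.633%. Median log2 fold changes over the 10 genes were, from low to high dose, 0.38, 1.08 and 1.58, against -0.02, -0.01 and -0.01 for all expressed genes. The 3 comparisons share the same control mice. Against 18 µg, the 162 µg lungs had higher Fgg, Orm2, Orm1 and Hpx, 4 of the 10, where 3.34% of expressed genes were called higher. Between 54 µg and 18 µg 0 of the genes were called by limma (4 at an unadjusted p under 0.05), with 0.0183% of expressed genes called higher. Between 162 µg and 54 µg 0 were called (3 at an unadjusted p under 0.05), as was 0% of expressed genes. The calls at 18 µg and 54 µg were lost under many other settings, and those at 162 µg were lost without normalization of the arrays, as given in the section on processing.

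**Figure D1:**
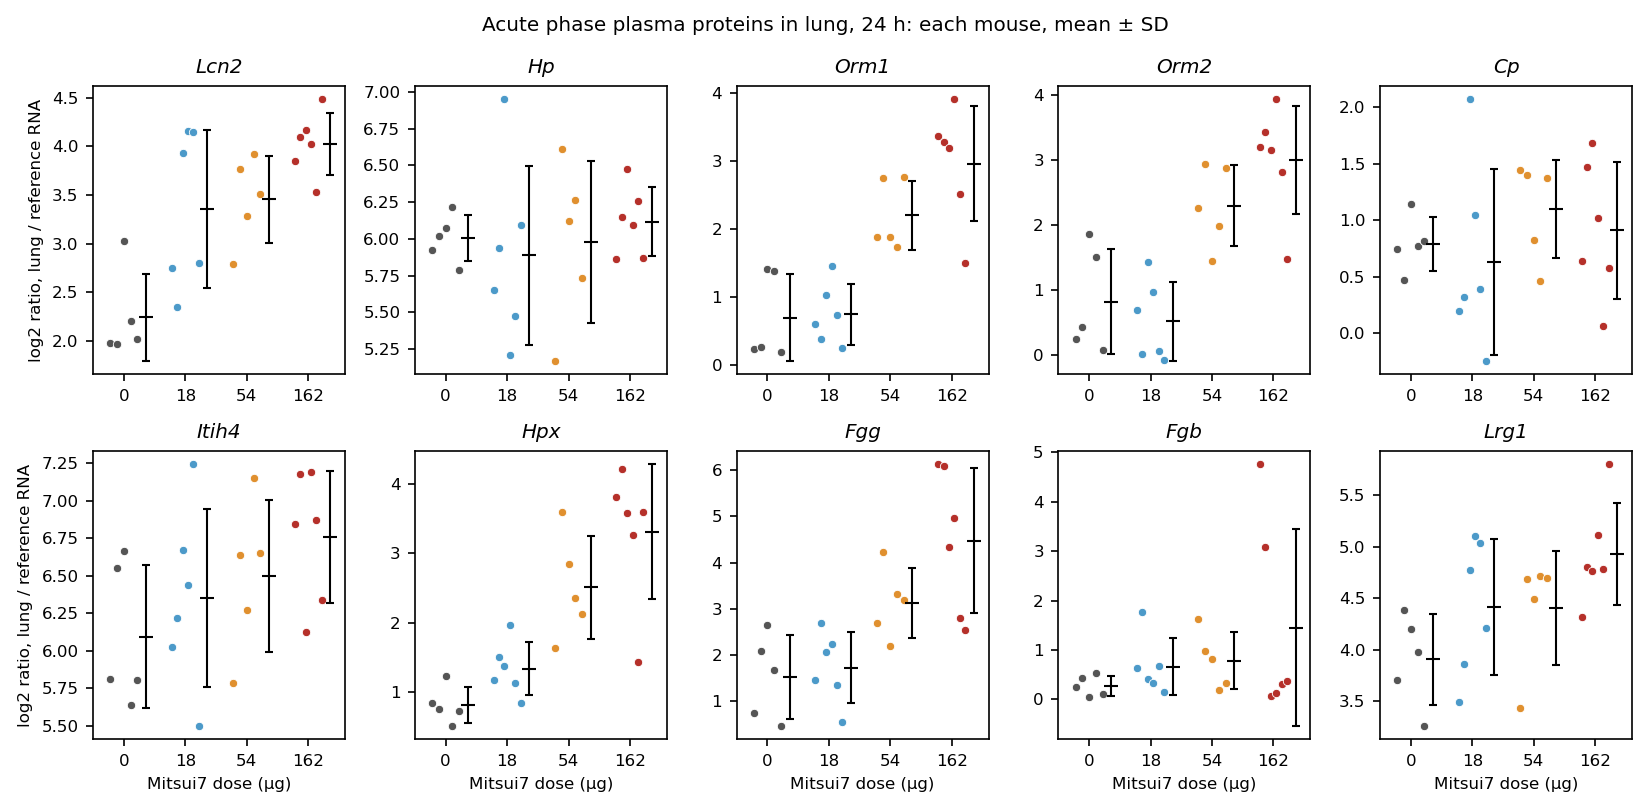
Log2 ratio of lung to reference RNA (y axis, own scale in each panel) of the 10 genes against the Mitsui7 dose in µg (x axis, 0 is vehicle). Each point is 1 mouse and the black bar is the mean with the SD of the group; Hpx and Fgg rise from control to 162 µg, whereas Hp stays between 5.17 and 6.95 in all 22 mice.

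Of the proteins that bind iron, heme or copper, Lcn2 and Hpx were higher in the exposed lungs and Hp and Cp were not called at any dose. In the 5 control mice the Lcn2 log2 ratio was 1.98, 1.97, 3.03, 2.21 and 2.02. At 18 µg it ranged from 2.35 to 4.16 with a median of 3.37, at 54 µg it was 2.79, 3.77, 3.29, 3.92 and 3.51, and at 162 µg it ranged from 3.53 to 4.49 with a median of 4.06. Every mouse at 162 µg lay above every control, which 3 of 6 mice did in the 18 µg group and 4 of 5 in the 54 µg group. The 18 µg mice fell apart into 3 mice between 3.93 and 4.16 and 3 mice at 2.35, 2.75 and 2.80. In limma, 18 µg gave a log2 fold change of 1.14 (SE 0.27, adjusted p = 0.0485), 54 µg one of 1.11 (SE 0.29, adjusted p = 0.164) and 162 µg one of 1.65 (SE 0.27, adjusted p = 0.00193). Lcn2 was higher than the control of the same slide in 4 of 4 pairs at 18 µg, 3 of 3 at 54 µg and 4 of 4 at 162 µg. The call at 18 µg held in 6 of the 22 fits that left out 1 mouse, those without 18 µg mouse 2 or 6, 54 µg mouse 3 or 5, or 162 µg mouse 5 or 6, with a log2 fold change of 0.96 to 1.35 and an adjusted p of 0.0242 to 0.161 over the 22 fits. Between 162 µg and 18 µg Lcn2 differed by 0.51 (95% interval -0.03 to 1.05, adjusted p = 0.347), so the order of these doses is not resolved for Lcn2.

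Hpx had the narrowest controls among the genes called at 162 µg, with log2 ratios of 0.83, 0.76, 1.22, 0.51 and 0.73. At 18 µg the range was 0.84 to 1.96 with a median of 1.28. At 54 µg the mice read 1.64, 3.59, 2.85, 2.35 and 2.12, and at 162 µg they read 3.81, 4.21, 3.58, 3.26, 1.43 and 3.59. All mice at 54 µg and at 162 µg lay above all controls, and mouse 5 at 162 µg stood well below its group. Hpx was 3.31-fold higher at 54 µg (log2 fold change 1.72, SE 0.32, adjusted p = 0.0367) and 5.39-fold higher at 162 µg (2.43, SE 0.30, adjusted p = 2.82e-04), while at 18 µg the log2 fold change of 0.65 (SE 0.30, adjusted p = 0.317) did not pass. Against 18 µg, Hpx was 3.44-fold higher at 162 µg (log2 fold change 1.78, SE 0.28, adjusted p = 0.00184), higher in 5 of 5 pairs on the same slide. The 54 µg call of Hpx held in 10 of 22 fits that left out 1 mouse, with an adjusted p of 0.00356 to 0.182. It was lost without any one of the 5 controls, without 18 µg mouse 3 or 5, without 54 µg mouse 2 or 4, and without 162 µg mouse 1, 2 or 3, with log2 fold changes from 1.55 to 1.95 over the 22 fits.

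Hp and Cp did not pass the test. Hp stood at 5.93, 6.02, 6.08, 6.21 and 5.79 in controls and between 5.87 and 6.47, with a median of 6.12, at 162 µg. The groups overlapped at every dose, and the spread was wider at 18 µg (SD 0.61, n = 6) and 54 µg (SD 0.55, n = 5) than in controls (SD 0.16, n = 5). The log2 fold change of Hp at 162 µg was 0.11, with a 95% interval of -0.33 to 0.56, which corresponds to 0.79 to 1.47 times the control level. Its sign at 162 µg turned negative under median centring, without normalization, under quantile normalization, in the deposited table and with the replicate block added to slide. Cp stood at 0.75, 0.47, 1.15, 0.77 and 0.82 in controls, 1.44, 1.40, 0.82, 0.47 and 1.37 at 54 µg, and 0.07 to 1.69 with a median of 0.83 at 162 µg. Its log2 fold change was -0.03, 0.46 and 0.17 at the 3 doses, and at 162 µg the 95% interval was -0.38 to 0.72. The sign for Cp at 162 µg was negative under median centring and without normalization.

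The orosomucoid genes Orm1 and Orm2, which lie on chromosome 4 with Orm3 between them, were the 2 genes of the set closest to each other across the exposed mice, with a mean absolute difference of 0.27 on the log2 scale over 17 arrays. Their sequences are similar and a probe of one may also hybridize to the RNA of the other, which was not tested. The Orm1 log2 ratio was 0.23, 0.25, 1.41, 1.38 and 0.18 in controls, and at 18 µg it ranged from 0.24 to 1.46 with a median of 0.67. It was 1.88, 2.75, 1.87, 1.73 and 2.76 at 54 µg and 3.36, 3.27, 3.20, 3.91, 2.51 and 1.49 at 162 µg. All mice at 54 µg and 162 µg were above all controls, but mouse 6 at 162 µg was below all 5 mice at 54 µg. For Orm1, 18 µg gave a log2 fold change of 0.15 (SE 0.30, adjusted p = 0.877), 54 µg one of 1.57 (SE 0.33, adjusted p = 0.0661) and 162 µg one of 2.22 (SE 0.30, adjusted p = 5.01e-04).

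Orm2 had values close to those of Orm1. Its controls were 0.25, 0.43, 1.87, 1.51 and 0.08, the 18 µg mice lay between -0.07 and 1.44 with a median of 0.38, the 54 µg mice were 2.26, 2.94, 1.45, 1.99 and 2.88, and the 162 µg mice were 3.21, 3.44, 3.15, 3.94, 2.81 and 1.49. Orm2 was above all controls in 4 of 5 mice of the 54 µg group and in 5 of 6 of the 162 µg group. For Orm2, 18 µg gave a log2 fold change of -0.10 (SE 0.35, adjusted p = 0.939), 54 µg one of 1.64 (SE 0.37, adjusted p = 0.0964) and 162 µg one of 2.24 (SE 0.35, adjusted p = 0.00125). Against 18 µg, the 162 µg lungs had 4.20-fold more Orm1 (adjusted p = 6.54e-04) and 5.04-fold more Orm2 (adjusted p = 7.11e-04), and both were higher in 5 of 5 pairs on the same slide. The lung signal was well above background in 4 of 6 mice at 18 µg and 4 of 5 controls for each gene. For Orm2 it was below the negative control threshold in 18 µg mice 5 and 6. In control mice 1, 2 and 5 the Orm1 Cy5 signal was 98, 85 and 87, against thresholds of 82.2, 74.6 and 75.4. The folds of both genes against 18 µg and against controls thus rest in part on values at or near background. Without 54 µg mouse 3 both were called at 54 µg (adjusted p = 0.00851 for Orm1 and 0.00815 for Orm2), and without 162 µg mouse 4 also (0.0412 and 0.0449). Orm1 was also called at 54 µg without 54 µg mouse 5 (adjusted p = 0.0266) or 162 µg mouse 6 (0.0379), and with slide as a random block (adjusted p = 0.0466). Over the 22 fits the adjusted p reached 0.191 for Orm1 and 0.305 for Orm2. The reference RNA gave an Orm1 signal well above background on 1 array at 54 µg and 1 at 162 µg and on none in the other groups, so the denominator of its ratio was near background.

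The fibrinogen genes lie together on chromosome 3 with Fga between Fgg and Fgb, and the 3 chains are joined in 1 protein. Fgg was called at 54 µg and 162 µg, and Fgb and Fga at no dose, though the difference between the chains was not itself tested. The Fgg log2 ratio was 0.73, 2.09, 2.65, 1.66 and 0.45 in controls, 0.54 to 2.69 with a median of 1.75 at 18 µg, 2.69, 4.23, 2.18, 3.32 and 3.19 at 54 µg, and 6.14, 6.09, 4.34, 4.96, 2.80 and 2.53 at 162 µg. The control range was wide, and 4 of the 5 lungs exposed to 54 µg and 5 of the 6 exposed to 162 µg lay above all of it. Fgg was 4.33-fold higher at 54 µg (log2 fold change 2.11, SE 0.39, adjusted p = 0.0366) and 8.70-fold higher at 162 µg (3.12, SE 0.37, adjusted p = 2.24e-04), the largest change of the 10 genes. At 18 µg the log2 fold change was 0.67 (SE 0.37, adjusted p = 0.417). Fgg at 162 µg was 5.45-fold higher than at 18 µg (log2 fold change 2.45, SE 0.35, adjusted p = 7.73e-04). On the same slide, Fgg was above the control in 4 of 4, 3 of 3 and 4 of 4 pairs at the 3 doses.

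With slide as a random block Fgg at 54 µg was not called (log2 fold change 1.82, adjusted p = 0.18). Its 54 µg call held in 10 of 22 fits that left out 1 mouse, with log2 fold changes of 1.83 to 2.43 and an adjusted p of 0.0027 to 0.181. It was lost without any one of the 5 controls, without 18 µg mouse 3 or 5, without 54 µg mouse 1, 2 or 4, and without 162 µg mouse 1 or 2. The reference RNA gave no Fgg signal well above background on any array, and in controls the lung signal was well above background in 4 of 5 mice.

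At 162 µg Fgb was high in 2 of 6 mice. Its controls were 0.26, 0.44, 0.05, 0.53 and 0.10, and the 162 µg mice were 4.76, 3.07, 0.06, 0.13, 0.30 and 0.36, so that mice 1 and 2 stood far above and the other 4 lay within the control range. At 18 µg the range was 0.15 to 1.76 with a median of 0.53, and at 54 µg the mice were 1.63, 0.99, 0.81, 0.19 and 0.32. The log2 fold change at 162 µg was 1.51 (SE 0.50, adjusted p = 0.0871) and did not pass. Without mice 1 and 2 it was 0.31 (SE 0.26, adjusted p = 0.709), an alternative chosen after seeing the data, while Fgg without the same mice was 2.66 (SE 0.42, adjusted p = 0.0112). With 1 mouse left out at a time the change of Fgb ranged from 0.91 (without 162 µg mouse 1) to 1.89 (without control mouse 4). Fgb was called without control mouse 4 (adjusted p = 0.0478) or 162 µg mouse 3 (adjusted p = 0.043), and over the 22 fits its adjusted p reached 0.272. The lung signal of Fgb was well above background in 1 of 5 controls, 4 of 6 mice at 18 µg, 2 of 5 at 54 µg and 2 of 6 at 162 µg.

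Fga, the third chain, was no member of the set and stood between -0.49 and 0.43 in controls and between -0.30 and 0.30 at 162 µg, with a log2 fold change of 0.05 (SE 0.14, adjusted p = 0.929). Its lung signal was well above background in 2 of 5 controls and 3 of 6 mice at 162 µg. Other liver genes were high in the same 2 mice as Fgb: albumin (Alb) was 3.77 and 3.45 in mice 1 and 2 at 162 µg, at most 0.78 in the other 4 and at most 1.82 in controls, and fetuin A (Ahsg) was 3.90 and 2.89 in these mice and at most 1.31 in the others. Of 11 hepatocyte markers on the array, 8 were above all controls in both of mice 1 and 2, while 4 were above all controls in at least 1 of the other 4 mice (Tat in 3 of them, and Apoa2, Cps1 and Cyp2e1 in 2 each). The mean log2 ratio of the 8 markers that were expressed was 2.22 and 1.66 in these mice, 0.42 to 0.98 in the other 4, and 0.56 to 1.19 in controls. The part of these liver genes in the Fgg and Fgb values was not tested, and the 5 genes called at 162 µg were also called without mice 1 and 2.

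**Figure D2:**
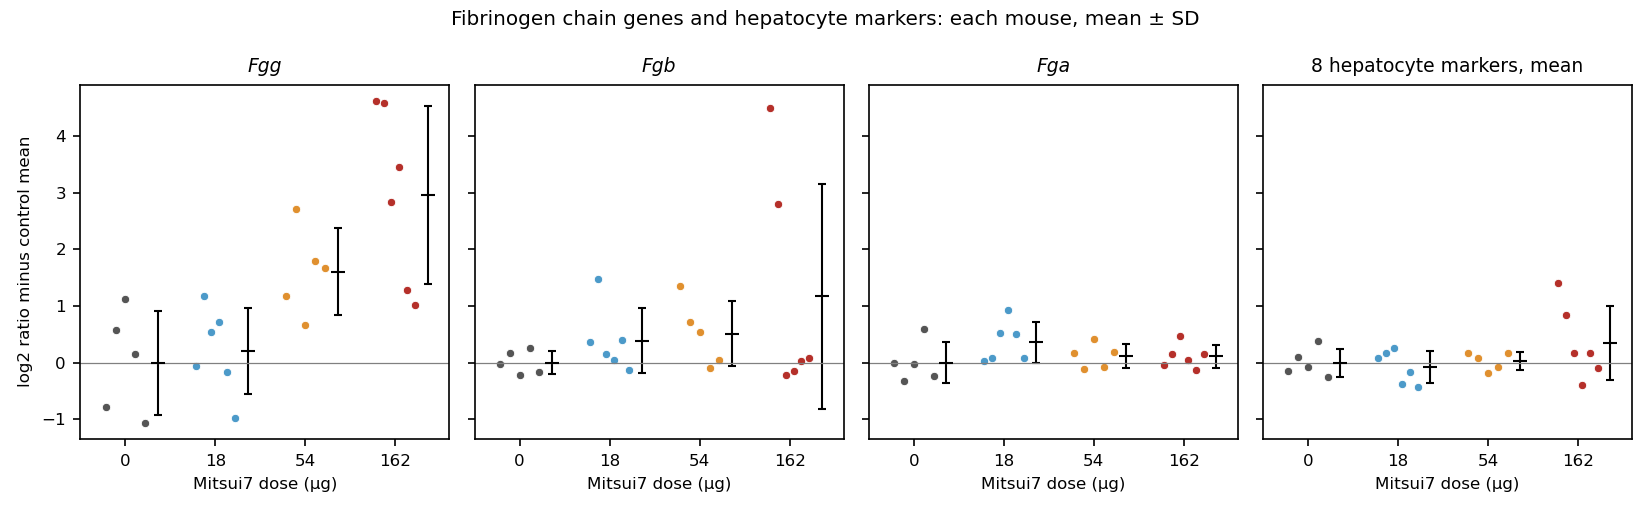
Log2 ratio minus the mean of the controls (y axis) of Fgg, Fgb and Fga and of the mean of 8 hepatocyte markers, against the Mitsui7 dose in µg (x axis). Each point is 1 mouse, bars are means with SD; Fgb and the hepatocyte markers are high in the same 2 mice at 162 µg, where Fgg is also highest, and Fga stays within the control range at 162 µg.

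Itih4 and Lrg1 were higher on average in exposed lungs without passing the test. On its brighter probe, Itih4 was 5.81, 6.55, 6.66, 5.64 and 5.80 in controls and 6.12 to 7.19, with a median of 6.86, at 162 µg, where 4 of 6 mice were above all controls. The log2 fold change at 162 µg was 0.64 (SE 0.25, adjusted p = 0.157) on this probe and 0.73 (SE 0.26, adjusted p = 0.124) on the other. Lrg1 was 3.71, 4.38, 4.20, 3.97 and 3.26 in controls and 4.31 to 5.80, with a median of 4.79, at 162 µg, where 5 of 6 mice were above all controls. Its log2 fold changes from low to high dose were 0.39, 0.32 and 0.75, the last with an SE of 0.27 and an adjusted p of 0.12 in limma. Lrg1 was called at 162 µg without control mouse 2 (log2 fold change 0.99, adjusted p = 0.0461). On the Cy5 channel alone Lrg1 was called at 162 µg (log2 fold change 1.87, adjusted p = 0.00234).

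**Figure D3:**
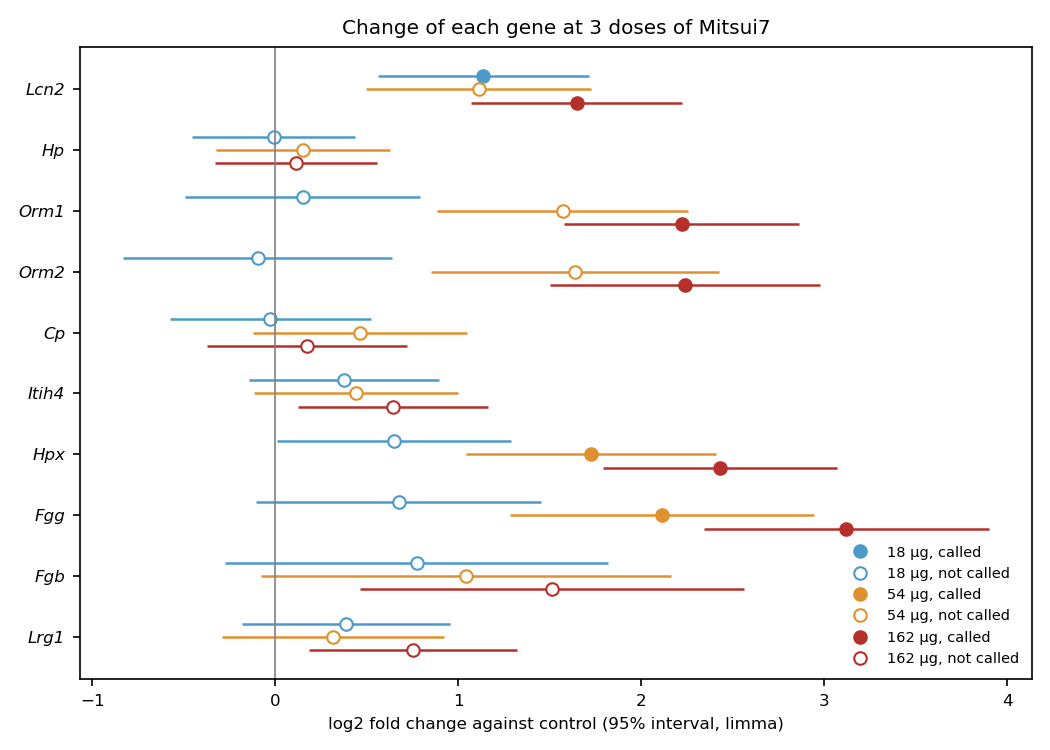
Log2 fold change against control (x axis) of the 10 genes at 18, 54 and 162 µg, with 95% intervals from limma. Filled points are called (adjusted p at most 0.05 and at least 1.5-fold); 5 points are filled at 162 µg, 2 at 54 µg and 1 at 18 µg.

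Mouse by mouse, the genes did not rank the exposed lungs alike. At 162 µg, 4 to 9 of the 10 genes were above all controls in a mouse, with 9 in mouse 2 and 4 in mouse 6. Mouse 6 had the highest Lcn2 (4.49) and Lrg1 (5.80) of the group and the lowest Orm1 (1.49), Orm2 (1.49) and Fgg (2.53). On its array 53.5% of probes were above the negative control threshold. Its Cy5 signals of Orm1 and Orm2 were 136.5 and 141, against a threshold of 80.1. Mouse 4, with 50.3% of probes above the threshold, had the highest Orm1 (3.91) and Orm2 (3.94) of the group. The part of array signal in these values was not tested. Mouse 5, with the lowest Hpx (1.43), had Orm1 at 2.51 and Fgg at 2.80. At 54 µg, 5 to 9 genes were above all controls, and at 18 µg 0 to 6. With 5 controls, some unchanged genes also exceed all of them in a single mouse. The share of all expressed genes that did so in each mouse was not computed, so these counts have no background beside them. Every mouse was above all controls for 0 genes at 18 µg, 2 at 54 µg (Orm1 and Hpx) and 3 at 162 µg (Lcn2, Orm1 and Hpx), while 1.41%, 1.51% and 3.72% of expressed genes had that pattern.

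**Figure D4:**
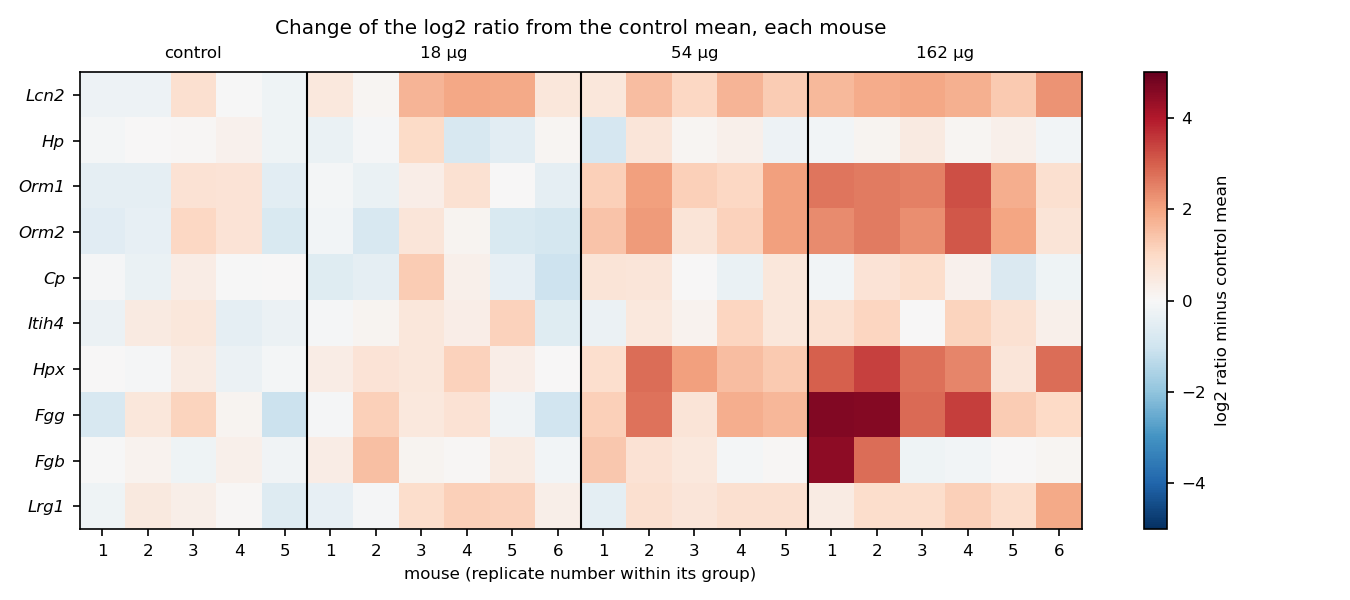
Log2 ratio minus the control mean (colour) of the 10 genes (rows) in each of the 22 mice (columns, grouped by dose, numbered within a group). Fgg and Fgb are darkest in mice 1 and 2 at 162 µg, and mouse 6 of that group is pale for Orm1, Orm2 and Fgg.

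RefSeq promoters (GRCm38.p6, 250 bases before to 50 from the transcription start) were found for 8 of the 10 genes, with 2 for Cp and so 9 promoters, and for neither Orm1 nor Hp. Those of the 4 called genes with an entry and of Fgb are printed because the comparison of doses and of the fibrinogen chains turns on these genes, with capitals at every match to 3 motifs on either strand: TTCNNNGAA, the core bound by STAT factors, TTNNGCAA, a C/EBP core, and a kappa B site. The letters run 5′ to 3′ on the gene's own strand.
Lcn2, chr2:32387690-32387989, minus strand: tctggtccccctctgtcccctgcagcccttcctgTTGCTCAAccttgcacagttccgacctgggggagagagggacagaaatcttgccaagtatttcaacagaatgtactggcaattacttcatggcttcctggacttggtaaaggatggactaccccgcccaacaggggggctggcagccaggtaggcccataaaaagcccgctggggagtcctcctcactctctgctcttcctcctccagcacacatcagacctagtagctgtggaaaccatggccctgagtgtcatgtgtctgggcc
Hpx, chr7:105600067-105600366, minus strand: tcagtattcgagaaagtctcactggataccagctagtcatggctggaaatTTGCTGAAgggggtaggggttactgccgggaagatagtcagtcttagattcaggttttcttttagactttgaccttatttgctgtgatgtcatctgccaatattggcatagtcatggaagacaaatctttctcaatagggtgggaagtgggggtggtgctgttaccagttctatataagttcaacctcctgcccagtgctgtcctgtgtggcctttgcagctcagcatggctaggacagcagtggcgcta
Orm2, chr4:63362199-63362498, plus strand: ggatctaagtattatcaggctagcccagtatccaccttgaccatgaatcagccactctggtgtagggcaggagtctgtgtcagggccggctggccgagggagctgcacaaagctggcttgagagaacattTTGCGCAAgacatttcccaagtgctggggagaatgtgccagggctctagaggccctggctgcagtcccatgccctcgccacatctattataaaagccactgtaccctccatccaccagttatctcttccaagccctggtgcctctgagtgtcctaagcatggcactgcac
Fgg, chr3:83007474-83007773, plus strand: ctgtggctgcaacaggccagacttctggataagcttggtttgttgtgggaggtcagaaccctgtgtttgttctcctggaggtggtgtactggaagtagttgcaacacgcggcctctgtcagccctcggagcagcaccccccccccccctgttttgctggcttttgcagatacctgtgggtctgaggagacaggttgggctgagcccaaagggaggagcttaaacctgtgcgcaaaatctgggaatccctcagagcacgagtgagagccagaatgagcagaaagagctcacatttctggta
Fgb, chr3:83049814-83050113, minus strand: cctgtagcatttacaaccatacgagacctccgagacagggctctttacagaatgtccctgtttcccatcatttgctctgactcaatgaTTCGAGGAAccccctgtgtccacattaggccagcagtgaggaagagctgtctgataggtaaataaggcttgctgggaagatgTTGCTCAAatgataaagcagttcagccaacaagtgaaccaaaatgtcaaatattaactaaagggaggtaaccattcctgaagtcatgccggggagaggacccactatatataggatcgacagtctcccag

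The C/EBP letters were found in 5 of the 9 promoters, those of Lcn2, Hpx, Orm2, Fgb and 1 of Cp, and in 10.8% of all 32851 promoters in the table. The STAT letters were in 2, those of Fgb and Itih4, and in 8.3% of all promoters. The kappa B letters were in none, and in 1.63% of all promoters. The Fgb promoter held both a STAT and a C/EBP match, at positions -162 and -80 from the start, and the Fgg promoter held no match. Only exact matches to the letters were counted, so a site that departs from them is missed. The Orm2 match, TTGCGCAA, began at position -120, and those of Hpx and Lcn2 at -200 and -216. A match is a description of the letters, and binding was not measured.

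Other acute phase genes were read from lists of the pathway. Of 28 expressed plasma proteins of the response outside the set, 5 were higher at 162 µg, among them Serpina3m by 3.64 on the log2 scale (adjusted p = 1.04e-06), Serpina3c by 1.88, Serpina3n by 1.74 and Orm3 by 1.10 (adjusted p = 0.003). Serpina3c and Serpina3m were also called at 54 µg (adjusted p = 0.0432 and 4.35e-04), and Serpina3m, C3 and Cfb at 18 µg (log2 fold changes 1.11, 1.37 and 0.90). The median log2 fold change of the list at 162 µg was 0.57 (25 of 28 higher). Over all expressed genes, 3.34% were called higher at 162 µg, 0.25% at 54 µg and 0.633% at 18 µg. Orm3, between Orm1 and Orm2 in the genome, was above all controls in 6 of 6 mice at 162 µg, as were 3.72% of expressed genes. Of the negative acute phase proteins, whose blood level falls in inflammation, 4 of 8 were expressed and 0 were called by limma in any comparison with controls.

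Of 4 serum amyloid A genes, Saa1, Saa2 and Saa3 were called at 162 µg, with log2 fold changes of 3.74, 4.04 and 6.37, and Saa1 and Saa3 at the other doses. Saa3 had a value in 4 of 5 controls, and Saa1 in 4 of 5 mice at 54 µg. Of 25 expressed cytokines, receptors and transcription factors of the response, 4 were higher at 162 µg, where 3.34% of expressed genes were called higher. Il6 was not well above background in any control and was at least 8.38-fold higher at 162 µg. This bound is from the Cy5 channel after loess and Aquantile scaling, and is open to dye bias because no dyes were swapped. The adjusted p of 0.00153 for Il6 is from limma on the log2 ratios and does not test the bound. Cebpd, the C/EBP factor of the acute phase, rose by 1.91, Socs3, a feedback target of STAT3, by 1.28, and Nfkbia, a feedback target of NF-kB, by 0.99 on the log2 scale. Stat3 itself differed by 0.28 (SE 0.13, adjusted p = 0.244). Of the 4 genes called at 162 µg none was called at 18 µg or 54 µg. Il6 was still above all controls (at most -2.06) in every mouse at 18 µg (lowest -1.85) and 54 µg (lowest -1.28). Socs3 was above all controls (at most -0.04) in every mouse at 54 µg (lowest 0.44), and overlapped them at 18 µg. That pattern was found in 1.41% of expressed genes at 18 µg and 1.51% at 54 µg. Cebpd overlapped the controls at both doses, with control mouse 2 at 2.81.

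Of 22 expressed receptors and partners of the proteins, 2 were higher at 162 µg, the ferritin heavy chain Fth1 (log2 fold change 0.94, adjusted p = 6.56e-04) and the fibrinogen receptor Icam1 (0.91, adjusted p = 0.0321). The list median was -0.01 (10 of 22 higher), and 3.34% of expressed genes were called higher at that dose. The asialoglycoprotein receptor gene Asgr1, whose product clears desialylated plasma proteins, was lower by 1.80, 2.05 and 1.95 on the log2 scale at the 3 doses. It was below all controls in all mice of each dose, and the share of expressed genes with that pattern was not computed. The haptoglobin receptor Cd163 was not expressed above the threshold, the hemopexin receptor Lrp1 differed by 0.74 (SE 0.24, adjusted p = 0.0858) at 162 µg and heme oxygenase Hmox1 by 0.40 (SE 0.36, adjusted p = 0.654).

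Of 16 neutrophil markers 1 was higher at 162 µg, Il1r2 (log2 fold change 2.36, adjusted p = 0.00746), with 0 called at 18 µg and 54 µg. The mean log2 ratio of the list ranged from 1.46 to 3.50 in controls, with a median of 1.84. At 162 µg it ranged from 1.67 to 3.76, with a median of 2.46. The 3.50 was control mouse 2 alone, and the next control was at 1.93. At 162 µg only mouse 6 (1.67) lay below 2.32. S100a8, measured in 5 mice at 162 µg and 4 controls, was not called (log2 fold change 0.27, SE 0.65). Of 8 expressed hepatocyte markers 1 was higher at 162 µg, Tat (log2 fold change 0.69, adjusted p = 0.00904). At 162 µg Napsa was higher by 0.72 on the log2 scale among 8 type II alveolar markers, and Pdpn by 1.04 among 5 type I markers. Ly6c1 was higher by 1.35 among 6 listed monocyte markers (Ly6c2 was not found on the array), and Marco by 1.51 among 8 alveolar macrophage markers. Cyp2f2 was lower by 1.00 among 7 club and goblet markers, and Ccdc39 and Tppp3 by 0.87 and 0.91 among 6 ciliated markers. In these lists only called genes are named. List medians were 0.05 for type II (4 of 8 higher), 0.14 for type I (4 of 5) and -0.04 for monocyte markers (3 of 6). They were 0.47 for alveolar macrophage (6 of 8 higher), -0.36 for club and goblet (3 of 7) and -0.74 for ciliated markers (0 of 6). Over all 16429 expressed genes, 549 (3.34%) were called higher and 580 lower at 162 µg. The part of these marker genes' changes in the acute phase values was not tested.

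For each member the 15000 genes measured on all arrays were ranked by how closely they followed it over the 17 exposed mice, as the mean absolute difference of the changes from control on the log2 scale. Serpina3n was nearest to Lcn2 (0.30), Tmem37 to Hpx (0.45), Il1r2 to Fgg (0.59) and Ambp to Fgb (0.27). Next in order were S100a14 and Itga7 for Lcn2, Pla1a and Cebpd for Hpx, and Orm1 and Orm2 for Fgg, while Serpina3k and Serpina1d followed Ambp for Fgb. After each other, Orm1 and Orm2 both had F3 next (0.38 and 0.55). Ambp, like Fgb, stood high in mice 1 and 2 at 162 µg (4.25 and 2.41) and at most at 0.23 in the other 4. A small difference is also found between genes that hardly change, as for Hp and Fgf1 (0.24), so these distances describe the mice and rank no relation.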

How the data were processed

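Lung RNA of 22 mice was hybridised with Cy5 and universal reference RNA with Cy3, without dye swaps, on Agilent arrays with 1 array per mouse. The authors deposited signal intensity values of each spot in both channels, which per the file headers come from Feature Extraction version 10.7.3.1 and were not yet normalized, and a table of normalized log2 ratios whose normalization is not given in the sources used here. The intensities were used and the deposited log2 table was an alternative. Its columns correlated with the values used here at 0.834 to 0.998, lowest for the 4 arrays of slide 7, and 18 of 22 arrays correlated best with their own column.

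Spots marked as outliers were left out, log2 ratios of the median signals were normalized within each array by loess (span 0.3, no background subtraction), and the median over spots of a probe was taken. Dose and slide were fixed effects in limma 3.58.1 (R 4.3.3), leaving 12 residual degrees of freedom. The Benjamini-Hochberg adjustment ran over 55681 probes. The authors' methods fit dose and slide with MAANOVA, which was not used here. Expressed means a Cy5 signal above the trimmed mean (5%) plus 3 trimmed SDs of 308 negative controls in 80% or more of any group's arrays. A gene is represented by its brightest probe, and genes were named by RefSeq accession (26413 probes). The number of arrays limits precision.

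All 10 members are named, and of other lists the genes called at 162 µg with the 4 largest changes, or those a count of 5 or fewer refers to; Fga, Alb, Ahsg, Stat3, Cd163, Lrp1, Hmox1, S100a8 and Ambp were named for their roles or likeness after their values were seen. One gene of the list of other acute phase proteins is counted and not reported here by name. The members and lists were chosen with earlier results of these data known. Alternatives were normexp (offset 50), median centring, no normalization, quantile normalization, Cy5 alone (75th percentile), other slide and replicate terms, other filters, an adjusted p of 0.1, and leaving out mice or a slide.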

Additional observations from a re-analysis of the deposited data

Results flagged for a closer look

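In 4 of 40 groups of mice (10 genes, 4 groups), 1 mouse lay further from the rest than Dixon's 95% limit for the group's size, and chance marks about 1 in 20 groups. In controls, Lcn2 was 3.03 in mouse 3 on the log2 scale, with the next control at 2.21. At 162 µg, Hpx was 1.43 in mouse 5, with the next mouse at 3.26. At 18 µg, Fgb was 1.76 in mouse 2, with the next mouse at 0.68. Alb (2.80) and Ahsg (2.55) were also highest of the group in this mouse, but Alb was nearly as high (2.59) in mouse 5, where Fgb was at most 0.68. At 54 µg, Lrg1 was 3.43 in mouse 1, with the next mouse at 4.49. Mouse 5 at 162 µg lay on slide 7, and the share of probes above the negative control threshold was 63.9% on its array. The part of slide and signal in these values was not tested.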

How the results depend on the processing

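The 5 genes called higher at 162 µg and the 4 called against 18 µg kept their number within 1.5 times under all alternatives but 1: without normalization 0 were called in either comparison (adjusted p at 162 µg from 0.057 to 0.7 for these 5 genes). Median centring lost Lcn2 at 162 µg (0.94, adjusted p = 0.196), and the replicate block with slide also did (1.58, adjusted p = 0.0642). At 18 µg the 1 call became 0 with normexp, median centring, no normalization, Cy5 alone, the deposited table, no slide term, the replicate block with slide, only the 2 groups compared, outlier spots kept, the intensity trend with a robust prior, 162 µg mice 1 and 2 left out, and slide 7 left out. At 54 µg the 2 calls became 0 with normexp, median centring, no normalization, the deposited table, no slide term, the replicate block with slide, the intensity trend with a robust prior, mice 1 and 2 left out and slide 7 left out. They became 1 with quantile normalization, 5 with Cy5 alone, 5 with only the 2 groups compared and 4 at an adjusted p of 0.1, which also gave 1 call for 54 µg against 18 µg. The last 2 omissions were chosen after seeing the data, and the causes were not tested. With 1 mouse left out in turn, the counts ranged from 0 to 1 at 18 µg, 0 to 4 at 54 µg, 5 to 6 at 162 µg, 0 to 2 for 54 µg against 18 µg, 4 to 4 for 162 µg against 18 µg and 0 to 0 for 162 µg against 54 µg.

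In the comparisons below, directions turned for genes not called in that comparison, on the log2 scale as follows. At 18 µg, Itih4 was -0.034 and Lrg1 -0.065 with median centring and -0.20 and -0.23 without normalization. Orm2 was 0.45 on Cy5 alone and 0.28 with the replicate block and slide. Cp was 0.026 with quantile normalization, 0.045 with only the 2 groups compared and 0.10 without slide 7, and Hp was 0.017 with only the 2 groups compared, 0.024 without 162 µg mice 1 and 2 and 0.048 without slide 7. At 54 µg, Hp was -0.027 with no slide term, -0.027 with the replicate block in place of slide and -0.25 with both, and Lrg1 was -0.023 without slide 7. At 162 µg, Hp was -0.15 with median centring, -0.17 without normalization, -0.075 with quantile normalization, -0.028 in the deposited table and -0.068 with the replicate block and slide, and Cp was -0.12 with median centring and -0.14 without normalization. Against 18 µg, 162 µg gave -0.059 with quantile normalization and -0.020 without slide 7 for Hp, and -0.21 without mice 1 and 2 for Fgb. With 1 mouse left out, Hp ranged from -0.17 to 0.15, Orm2 from -0.22 to 0.041 and Cp from -0.30 to 0.17 at 18 µg, Lrg1 from -0.0073 to 0.50 at 54 µg, Hp from -0.0061 to 0.23 and Cp from -0.10 to 0.37 at 162 µg, and Hp from -0.044 to 0.27 between 162 µg and 18 µg. For 54 µg against 18 µg, Lcn2 then ranged from -0.25 to 0.15, Hp from -0.023 to 0.37, Itih4 from -0.15 to 0.21 and Lrg1 from -0.28 to 0.11, and for 162 µg against 54 µg Hp from -0.19 to 0.072.

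Same-numbered mice of different groups did not deviate together in every pair (correlation from -0.17 to 0.62 over 31 pairs, above 0.1 in 20), and 12 of 22 arrays were closest to an array of their own number. With the replicate block in place of slide the counts were 1, 2 and 6 at the 3 doses, but at 54 µg Fgg lost its call (1.61, adjusted p = 0.121) and Orm1 gained one (adjusted p = 0.0325), and Lrg1 gained one at 162 µg (0.96, adjusted p = 0.0304). Slide as a random block made the same exchange of Fgg and Orm1 at 54 µg. With the replicate block and slide the counts were 0, 0 and 4. Signal over background limits Fgb, the lung signal of Orm1 and Orm2 in the control and 18 µg groups and the reference channel of Orm1, Orm2 and Fgg.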
